A study of Saccharomyces cerevisiae with 7 samples.

Results

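RNA polymerase II (RNAPII) was compared directly between 2 deletion strains of budding yeast, rtt109Δ and rrp6Δ, with the wild-type (WT) strain of the same series left out. The members are the 4 immunoprecipitated (IP) libraries of these strains, 2 for rtt109Δ and 2 for rrp6Δ, out of 7 samples in the series. The other samples are 2 WT IP libraries and 1 input library of W303 cells. All cells grew asynchronously in rich medium with glucose and were taken in log phase. Chromatin was crosslinked with formaldehyde, cut with micrococcal nuclease, and the IP used an anti-CTD antibody, where CTD stands for the C-terminal domain, the repeated tail of the largest RNAPII subunit. The CTD is the part of RNAPII that recruits capping, elongation and termination factors.

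Rtt109 is the acetyltransferase that places acetyl groups on lysine 56 of newly made histone H3 (H3-K56Ac), a mark linked to fast exchange of nucleosomes at promoters and to genome stability during replication. Rrp6 is a nuclease of the nuclear RNA exosome, which trims and degrades unstable noncoding transcripts and processes ribosomal, small nucleolar and other structured RNAs. A track of RNAPII reports where the polymerase sits, so it can differ between strains without a difference in the amount of RNA. The direct comparison asked which genes held more or less polymerase without Rtt109 than without Rrp6.

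Each genotype has 1 deposited track, which already combines its replicates and gives the ratio of IP to input every 50 bp in 100-bp windows. The series holds 1 input library, and how each track was divided by it is not given in the sources used here. With 1 track per genotype no error between replicates could be computed, and every difference below is a difference between 2 tracks with no test and no replicate check. The median window was 1 in each track, so a genome-wide difference in level cannot appear. The SD over windows was 0.661 in rtt109Δ and 0.904 in rrp6Δ. The rtt109Δ track thus had the narrower spread, and values with the ranks of both strains matched are given where this bears on a result.

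An open reading frame (ORF) was given the average of all windows whose centre it contained, which is a level per length. Of 6002 annotated nuclear ORFs, 5781 could be used. The ORF of RTT109 (YLL002W, chromosome XII, 146291 to 147601) had a ratio of 0.0178 in rtt109Δ and 1.29 in rrp6Δ. The ORF of RRP6 (YOR001W, chromosome XV, 326832 to 329033) had 1.08 in rtt109Δ and 0.118 in rrp6Δ. Each deleted gene was thus at or near 0 in the track of its own strain, which fits the labels. The log2 ratio of RRP6 was 5.55 in the first and 1.74 in the last of 3 equal parts of the ORF, so some signal in rrp6Δ lay towards its 3′ end.

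The differences between the strains were spread over both directions. With the limit of 1.3-fold that the study used, 661 ORFs were lower in rtt109Δ (11.4% of all ORFs) and 652 were higher (11.3%), the deleted genes included. The other 4468 ORFs (77.3%) lay within the limit. The median log2 ratio of rtt109Δ to rrp6Δ was -0.06, with a 95% order-statistic interval of -0.07 to -0.05. The central 90% of ORFs ran between -0.48 and 0.58. Such intervals treat ORFs as independent and hold no replicate error. The higher side had the longer tail, since 48 ORFs were more than 2-fold higher and 6 more than 2-fold lower. At a limit of 1.5-fold, 111 ORFs were lower and 287 higher.

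The even split of the calls rests on the scaling of the tracks. At the deposited scale 50.3% of the calls were lower. With both tracks scaled to their means, 315 ORFs were lower and 906 higher, which is 25.8% lower. With both scaled to their median ORFs, 406 were lower and 809 higher, which is 33.4% lower. When the 10th percentile of its windows was taken off each track as background, 3270 ORFs were lower and 706 higher among the 5526 that remained, and the amount taken off was larger in rtt109Δ. ORFs just inside the limit were CDC31 with 0.856 in rtt109Δ and 1.11 in rrp6Δ, and DSK2 with 0.549 in rtt109Δ and 0.422 in rrp6Δ. Just outside it were SAP4, with 1.02 in rtt109Δ and 1.33 in rrp6Δ, and YLL067C, with 0.747 in rtt109Δ and 0.575 in rrp6Δ.

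The lower and the higher ORFs had nearly the same level in rtt109Δ and differed in rrp6Δ. ORFs called lower had a median ratio of 0.963 in rtt109Δ and 1.35 in rrp6Δ. ORFs called higher had a median of 0.964 in rtt109Δ and 0.619 in rrp6Δ. The calls were made on the ratio of these same values, so a difference in level between the called groups is set by the call. It can fall mainly on the track with the wider spread. The SD of log2 ORF values was 0.351 in rtt109Δ and 0.476 in rrp6Δ. Of the lower ORFs, 598 lay on the lower side in all 3 parts of the ORF, and 623 of the higher ORFs lay on the higher side in all 3. The calls used the mean over the same windows, so this agreement is set in part by the call and is no check of it. Across ORFs, which are not independent and may share an input library, Pearson's r between the log2 values of the strains was 0.692 and Spearman's rho was 0.689.

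**Figure D1:**
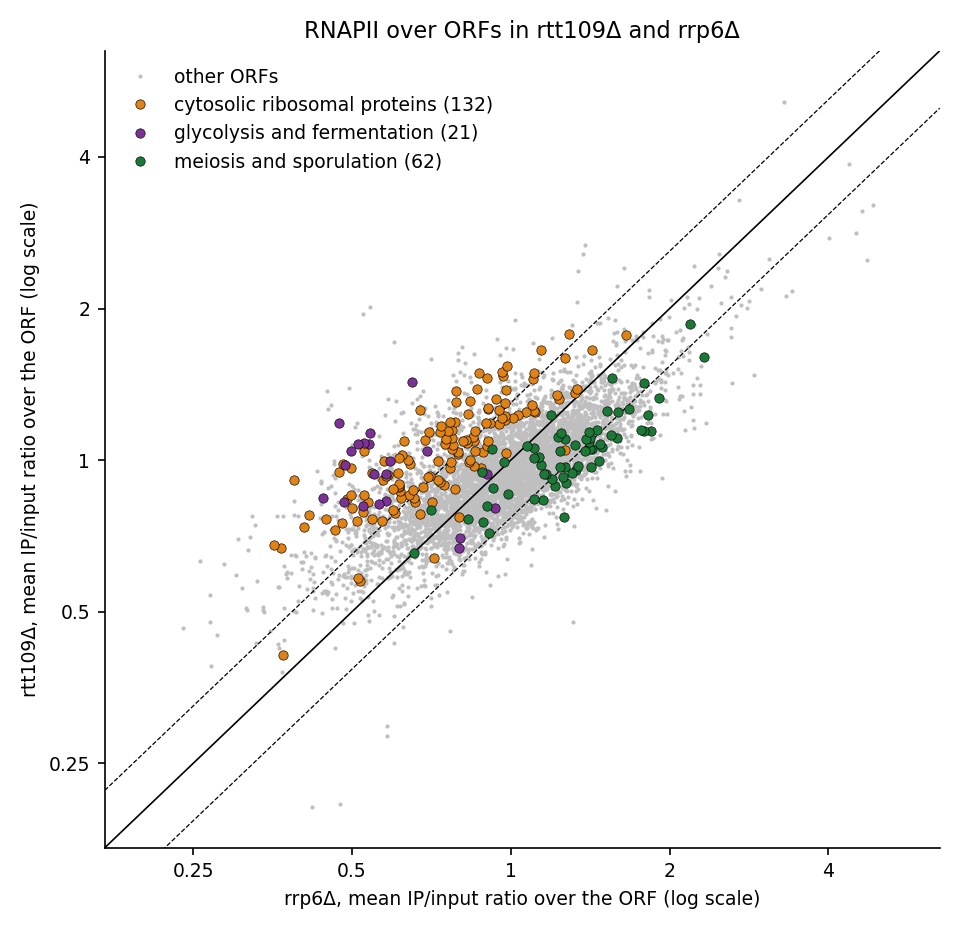
Mean IP/input ratio of each ORF in rtt109Δ (vertical axis) and rrp6Δ (horizontal axis), both on log scales, without the 2 deleted genes. The solid line marks equal values and the dashed lines 1.3-fold; ribosomal protein and glycolytic ORFs lie mostly above the line and at low ratios in rrp6Δ, and meiotic ORFs lie mostly below it at ratios above 1 in rrp6Δ.

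Gene families lay on different sides of this comparison. Of 23 lists of genes, 14 had a median log2 ratio above 0 and 9 below, beside the median of -0.06 over all ORFs. The median passed the 1.3-fold limit on the higher side in 4 lists, namely glycolysis and fermentation, sterol and fatty acid synthesis, cytosolic ribosomal proteins and amino acid synthesis. No list had a median past the limit on the lower side, and the closest was meiosis and sporulation. The sign of several medians rests on the scale. After the background was taken off as above, the median over all ORFs was -0.53, and 6 lists were above 0. The leading 4, translation factors and the list of genes with noncoding transcripts were those 6. Of the 652 higher ORFs, 228 (35.0%) belonged to at least 1 list, against 72 of the 661 lower ORFs (10.9%) and 16.4% of all ORFs.

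Genes of glycolysis and fermentation, which turn glucose into ethanol and are among the most heavily transcribed genes of yeast in glucose, stood highest. Their median ratio was 0.941 in rtt109Δ and 0.552 in rrp6Δ, with a median log2 ratio of 0.77 over 21 ORFs. The limit was passed by 17 members on the higher side and by none on the lower. CDC19, the main pyruvate kinase, had 1.18 in rtt109Δ and 0.474 in rrp6Δ. ADH1, the main alcohol dehydrogenase of fermentation, had 1.43 in rtt109Δ and 0.651 in rrp6Δ. TDH3 and FBA1, which encode glyceraldehyde-3-phosphate dehydrogenase and aldolase, had log2 ratios of 1.07 each. The 3 members below 0 encode minor isozymes of pyruvate decarboxylase and pyruvate kinase. PDC6 had 0.670 in rtt109Δ and 0.799 in rrp6Δ, PYK2 had 0.803 in rtt109Δ and 0.932 in rrp6Δ, and PDC5 had 0.702 in rtt109Δ and 0.803 in rrp6Δ, all within the limit.

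The level of these genes in rrp6Δ was low on the scale of the track. All 21 glycolytic ORFs lay below the median ORF in rrp6Δ, where the median member stood at percentile 5.48 of all ORFs, against percentile 49.7 in rtt109Δ. In the WT track, the median of the list was 0.634. Ratios in these tracks therefore did not follow the transcription for which these genes are known, and neither did they at meiotic genes, which are silent in growing cells. A cause was not tested. Higher and lower below mean the ratio of IP to input, not a rate of transcription.

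Cytosolic ribosomal protein genes lay almost wholly on the higher side. In rtt109Δ, 86 of the 132 were past the 1.3-fold limit on the higher side and none on the lower, with a median log2 ratio of 0.45 (interval 0.41 to 0.53). The median ratio was 1.04 in rtt109Δ and 0.768 in rrp6Δ. The median member stood at percentile 66.9 of all ORFs in rtt109Δ and at percentile 22.3 in rrp6Δ. The large subunit, with 77 ORFs, had a median log2 ratio of 0.43 and the small subunit, with 55 ORFs, had 0.48. RPL10 was highest, with 0.915 in rtt109Δ and 0.389 in rrp6Δ, followed by RPP0, the stalk protein of the large subunit, with 0.981 in rtt109Δ and 0.481 in rrp6Δ. The lowest were RPS10B, with 1.05 in rtt109Δ and 1.27 in rrp6Δ, and RPP2B, with 0.638 in rtt109Δ and 0.717 in rrp6Δ.

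Other parts of the protein synthesis machinery differed from this pattern. Translation factors had a median log2 ratio of 0.32, with 17 of 41 ORFs higher (41.5%) and 1 lower (2.44%). YEF3, the fungal elongation factor 3, had 1.18 in rtt109Δ and 0.510 in rrp6Δ, and TEF1, which encodes elongation factor 1A, had 1.07 in rtt109Δ and 0.501 in rrp6Δ. TEF2 is a near-identical copy of TEF1, so the reads of the pair cannot be told apart. TIF11, which encodes initiation factor 1A, was the member on the lower side, with 0.743 in rtt109Δ and 1.07 in rrp6Δ, and HEF3, a little used relative of YEF3, had 1.04 in rtt109Δ and 1.24 in rrp6Δ. Ribosome biogenesis genes, which build ribosomes but are not part of them, had a median of 0.05, with 10 of 121 ORFs higher (8.26%, below the 11.3% of all ORFs) and 2 lower. Their median was 0.13 with matched ranks, -0.0077 among members at or above the median level and -0.21 after background subtraction, so no direction is read for them. NOG1 was highest at 0.73 and NIP7 lowest at -0.52 on the log2 scale. Mitochondrial ribosomal proteins had a median of -0.12, with 4 of 68 ORFs higher (5.88%) and 7 lower (10.3%). Neither share was above the 11.3% and 11.4% of all ORFs. MRPL27 had 0.867 in rtt109Δ and 1.41 in rrp6Δ, and RSM7 had 0.561 in rtt109Δ and 0.398 in rrp6Δ.

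Biosynthetic enzymes also lay on the higher side. Genes of aerobic sterol and fatty acid synthesis had a median ratio of 1.09 in rtt109Δ and 0.786 in rrp6Δ, with a median log2 ratio of 0.56 and 20 of 32 ORFs higher, none lower. ACS2, which makes acetyl-CoA from acetate, had 1.32 in rtt109Δ and 0.586 in rrp6Δ. FAS2, a subunit of fatty acid synthase, had 1.24 in rtt109Δ and 0.619 in rrp6Δ, whereas ERG12, mevalonate kinase, had 0.795 in rtt109Δ and 0.967 in rrp6Δ. Amino acid synthesis genes had a median log2 ratio of 0.40, with 35 of 67 ORFs higher and none lower. ILV5 of the branched-chain pathway had 1.39 in rtt109Δ and 0.494 in rrp6Δ, and ASN1, asparagine synthetase, had 1.31 in rtt109Δ and 0.605 in rrp6Δ. LYS5 and SER2 were the lowest of that list, at -0.29 and -0.28 on the log2 scale.

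Chaperone genes were split by member. The list of heat shock and chaperone genes had a median log2 ratio of 0.20, with 13 of 37 ORFs higher (35.1%) and 1 lower (2.70%). This median was 0.082 with matched ranks, -0.33 in the 5 members at or above the median level and -0.20 after background subtraction, so the direction of the list rests on the scale. SSB2, a chaperone that binds nascent chains on the ribosome, had 0.817 in rtt109Δ and 0.437 in rrp6Δ, and SSC1, the mitochondrial Hsp70, had 0.999 in rtt109Δ and 0.539 in rrp6Δ. CPR7, a cyclophilin of the Hsp90 system, was lower, with 1.27 in rtt109Δ and 1.68 in rrp6Δ. Proteasome genes had a median of 0.14 with 2 of 34 higher (5.88%) and 1 lower (2.94%). Nuclear genes of the respiratory chain had a median of 0.13 with 4 of 41 higher (9.76%) and none lower. The shares of the proteasome and respiratory lists lay below the 11.3% and 11.4% of all ORFs. After background subtraction the median was -0.22 for the proteasome and -0.11 for the respiratory chain, and the 12 respiratory genes at or above the median level had -0.097. ATP1 and ATP2, the large subunits of mitochondrial ATP synthase, were the highest respiratory genes, at 0.59 and 0.52 on the log2 scale.

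Meiosis and sporulation genes formed the lowest list. They are repressed in growing cells and are induced when diploid cells starve. Their median ratio was 1.05 in rtt109Δ and 1.27 in rrp6Δ, with a median log2 ratio of -0.35 (interval -0.41 to -0.28). Past the limit, 27 of 62 were lower in rtt109Δ and none was higher, and 57 lay below 0. SPS4, a sporulation gene, had 0.773 in rtt109Δ and 1.26 in rrp6Δ, and OSW1, of the spore wall, had 1.14 in rtt109Δ and 1.84 in rrp6Δ. SPR6 and IME4 were at the other end, with log2 ratios of 0.19 and 0.17. The median meiotic ORF stood at percentile 68.5 in rtt109Δ and at percentile 81.5 in rrp6Δ, above the middle of both tracks.

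Other regulated genes lay on the same side with smaller medians. The DNA damage response list had a median log2 ratio of -0.27, with 7 of 32 ORFs lower (21.9%) and 2 higher (6.25%). Beside these, 11.4% of all ORFs were lower and 11.3% higher. DIN7, a nuclease gene induced by damage, had 1.06 in rtt109Δ and 1.75 in rrp6Δ, and DDI3 had 0.589 in rtt109Δ and 0.948 in rrp6Δ. The 2 higher members were SML1, the inhibitor of ribonucleotide reductase, with 0.850 in rtt109Δ and 0.590 in rrp6Δ, and HUG1, with 0.594 in rtt109Δ and 0.422 in rrp6Δ. Mating genes had a median of -0.16, with 7 of 30 ORFs lower (23.3%) and 1, the alpha-factor receptor gene STE2, higher (3.33%). The galactose list, which glucose represses, had a median of -0.15, with GAL7 at 0.837 in rtt109Δ and 1.36 in rrp6Δ, and GAL4 at 0.837 in rtt109Δ and 1.32 in rrp6Δ.

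Hexose transporters had a median log2 ratio of -0.19, with 3 of 19 ORFs lower (15.8%) and 2 higher (10.5%), near the 11.4% and 11.3% of all ORFs. HXT6 had 0.953 in rtt109Δ and 0.429 in rrp6Δ and HXT7 had 0.899 in rtt109Δ and 0.438 in rrp6Δ. They are near-identical high-affinity transporters whose reads cannot be told apart. HXT5 had 0.636 in rtt109Δ and 0.983 in rrp6Δ, and HXT14 had 1.19 in rtt109Δ and 1.81 in rrp6Δ. The phosphate list had a median of 0.04, or -0.23 after background subtraction. At its ends were PHO84, the phosphate transporter, with 1.46 in rtt109Δ and 0.837 in rrp6Δ and PHO89, a sodium-phosphate transporter, with 0.883 in rtt109Δ and 1.25 in rrp6Δ.

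Lists close to the deleted genes' own pathways showed small differences. Genes of H3 acetylation and chromatin assembly, which include partners of Rtt109, had a median log2 ratio of -0.18. Of 23 ORFs, 4 were lower (17.4%, beside 11.4% of all ORFs) and none higher. The interval of this median, -0.29 to 0.04, held both signs, and the median was -0.0040 over the first 500 bp. RTT107, of the replication damage response, had 0.988 in rtt109Δ and 1.35 in rrp6Δ, and HIR3, of the HIR histone chaperone, had 1.16 in rtt109Δ and 1.53 in rrp6Δ. CAC2 of chromatin assembly factor 1 and HST3, a deacetylase of H3-K56, had log2 ratios of 0.21 each. Histone genes had a median of 0.16, which was 0.041 with matched ranks and -0.27 after background subtraction, and HTB2, with a log2 ratio of 0.39, was the single ORF of 11 past the limit. Genes of the nuclear exosome, the TRAMP complex and Nrd1 termination, without RRP6, had a median of 0.02, or -0.40 after background subtraction, and 1 of 25 ORFs past the limit. This was NAB3, an RNA-binding termination factor, with 0.964 in rtt109Δ and 0.657 in rrp6Δ. MPP6, an exosome cofactor, was lowest, with 1.36 in rtt109Δ and 1.74 in rrp6Δ.

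RNAPII subunit genes had a median log2 ratio of 0.02, which was -0.01 when rtt109Δ was given the rrp6Δ distribution by rank and -0.32 after background subtraction, and their 2 largest subunits lay apart from the rest. RPO21, the gene of the subunit that carries the CTD, had 1.25 in rtt109Δ and 0.777 in rrp6Δ, and RPB2 had 1.25 in rtt109Δ and 0.939 in rrp6Δ. The other 9 subunit genes were within the limit. Cyclin genes had a median of -0.08, or 0.01 with tracks scaled to their means. CLN3, a G1 cyclin, had a log2 ratio of 0.72, and CLB6, an S-phase cyclin, one of -0.54. Seripauperin and other subtelomeric families had a median of -0.12, with 5 of 71 ORFs lower (7.04%) and 2 higher (2.82%). These shares lay below the 11.4% and 11.3% of all ORFs, and near-identical members share reads.

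A list of genes known for an upstream or antisense noncoding transcript had a median log2 ratio of 0.27. Past the limit were 8 of 23 ORFs on the higher side (34.8%) and 2 on the lower (8.70%). Over all ORFs these shares were 11.3% and 11.4%, so the lower share was below that of all ORFs. PHO84 and CLN3 were the highest members of the list. Lowest were IME1, the master regulator of meiosis, with 1.06 in rtt109Δ and 1.49 in rrp6Δ, and DCI1, with 0.953 in rtt109Δ and 1.27 in rrp6Δ. The study also defined groups of ORFs from RNA arrays of rrp6Δ and of the double mutant rtt109Δ rrp6Δ. Group A, with transcripts raised in rrp6Δ and lowered in the double mutant, had 715 matched ORFs with a median log2 ratio of -0.01 (interval -0.05 to 0.01), of which 64 were lower and 90 higher. Its sign changed with tracks scaled to their means (0.08) or median ORFs (0.05). Group B, with the opposite RNA pattern, had 241 matched ORFs with a median of -0.11, of which 25 were lower and 18 higher. The shares were 8.95% lower and 12.6% higher in group A, and 10.4% lower and 7.47% higher in group B. Beside them, 11.4% of all ORFs were lower and 11.3% higher, so nothing particular to the groups is read from the counts.

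**Figure D2:**
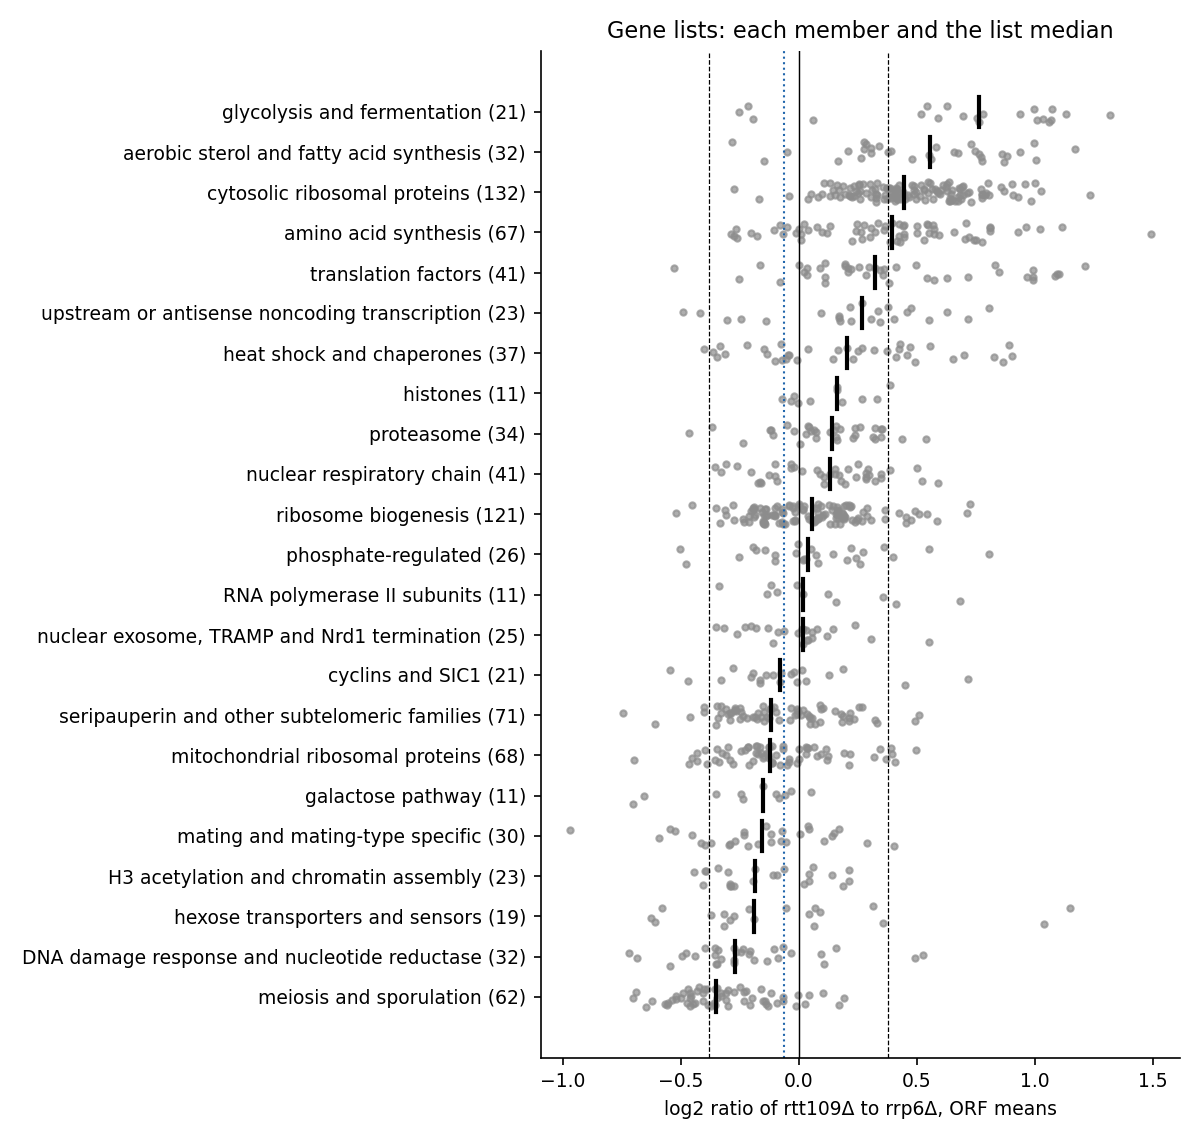
Log2 ratio of rtt109Δ to rrp6Δ for each member of 23 gene lists (points, with the number of ORFs in parentheses) and the list median (black bars). Dashed lines mark 1.3-fold in either direction and the dotted line the median of all ORFs, -0.06; the medians run from 0.77 for glycolysis to -0.35 for meiosis.

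The family differences were set beside the level of the ORF, because the difference between the strains varied with the level over both. ORFs were ranked by the mean of their log2 values in both strains and divided into 10 groups of equal size. The lowest group had a median log2 ratio of 0.27, with 221 ORFs higher and 13 lower. The highest group had 1.34 in rtt109Δ and 1.56 in rrp6Δ, a median log2 ratio of -0.25, with 18 ORFs higher and 171 lower. The groups in between went down step by step. After the rtt109Δ values were replaced by the rrp6Δ values of the same rank, the lowest group had -0.03 and the highest -0.06. Matching gives both strains the same spread, and a ranking by the mean of both can then hold no linear trend. The loss of the trend was thus fixed by the method. Unmatched, its direction was likewise set by the SD of log2 ORF values, 0.351 in rtt109Δ and 0.476 in rrp6Δ. With ORFs ranked by rtt109Δ alone the lowest group had 0.0058 and the highest -0.00036. The rtt109Δ value is part of the ratio, which by itself raises the top group, so this ranking cannot show that the trend is absent. Ranked by rrp6Δ alone, also part of the ratio, the lowest group had 0.43 and the highest -0.36. Ranked by the WT track, which is not in the ratio, they had 0.32 and -0.32.

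The leading families kept their side after the level was taken into account. For each ORF the median of its own level group was subtracted from its log2 ratio. The median of the remainder was 0.65 for glycolysis, 0.61 for sterol and fatty acid synthesis, 0.47 for ribosomal proteins, 0.36 for translation factors and 0.31 for amino acid synthesis. For ribosomal proteins 126 of 132 remainders lay above 0. Meiosis and sporulation had a remainder of -0.17, about as low as the subtelomeric and the mating lists at -0.17 each. Of the 62 meiotic remainders, 50 lay below 0. The DNA damage list had -0.11, and the galactose list had -0.12 with an interval of -0.53 to 0.04. For H3 acetylation and chromatin assembly the remainder was -0.07, with an interval of -0.16 to 0.10. With the ranks matched in place of the level groups, the list medians were 0.82 for glycolysis, 0.70 for sterol and fatty acid synthesis, 0.55 for ribosomal proteins and -0.25 for meiosis.

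Single ORFs were named by size of the difference among 1683 ORFs that were at least 300 bp long, had a gene symbol, overlapped no other ORF, reached the median ORF in the higher strain and lay on the same side in all parts. The largest difference on the lower side was at PRM6 (YML047C, chromosome XIII, 180017 to 181075), a membrane protein gene induced by pheromone. It had 1.47 in rtt109Δ and 2.89 in rrp6Δ, a log2 ratio of -0.97, which was -0.35 with the median over its windows. HIM1, a gene of DNA repair, had 1.16 in rtt109Δ and 2.22 in rrp6Δ. GET4, of the pathway that inserts tail-anchored proteins, had 0.796 in rtt109Δ and 1.51 in rrp6Δ. SGF11, of the deubiquitinating module of the SAGA coactivator, had 0.954 in rtt109Δ and 1.76 in rrp6Δ. The other 8 were HUA2, RMR1, DCV1, MPC3, SAM37, NVJ3, OST5 and CSI1, with log2 ratios between -0.85 and -0.77. The 12 came from unlike processes, such as mitochondrial pyruvate uptake (MPC3), outer membrane assembly (SAM37), glycosylation (OST5) and the COP9 signalosome (CSI1).

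The 12 largest differences on the higher side came mostly from metabolism and protein synthesis. TAR1 (YLR154W-C) lies within the ribosomal DNA opposite the 25S gene, in a repeat, so copy number and occupancy cannot be told apart there. It had 1.72 in rtt109Δ and 0.601 in rrp6Δ. ILV5 (YLR355C, chromosome XII, 838066 to 839253) followed with a log2 ratio of 1.49, and CDC19 (YAL038W, chromosome I, 71786 to 73288) with 1.32. GAP1, the general amino acid permease, had 1.59 in rtt109Δ and 0.705 in rrp6Δ, and GLY1, threonine aldolase, had 0.996 in rtt109Δ and 0.462 in rrp6Δ. The others were YEF3, ACS2, HXT6, ADH1, ASN1, TEF1 and TEF2, described with their families. The rule used the ratio and the level of the ORFs at both ends, so nothing is read from where their levels lie.

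**Figure D3:**
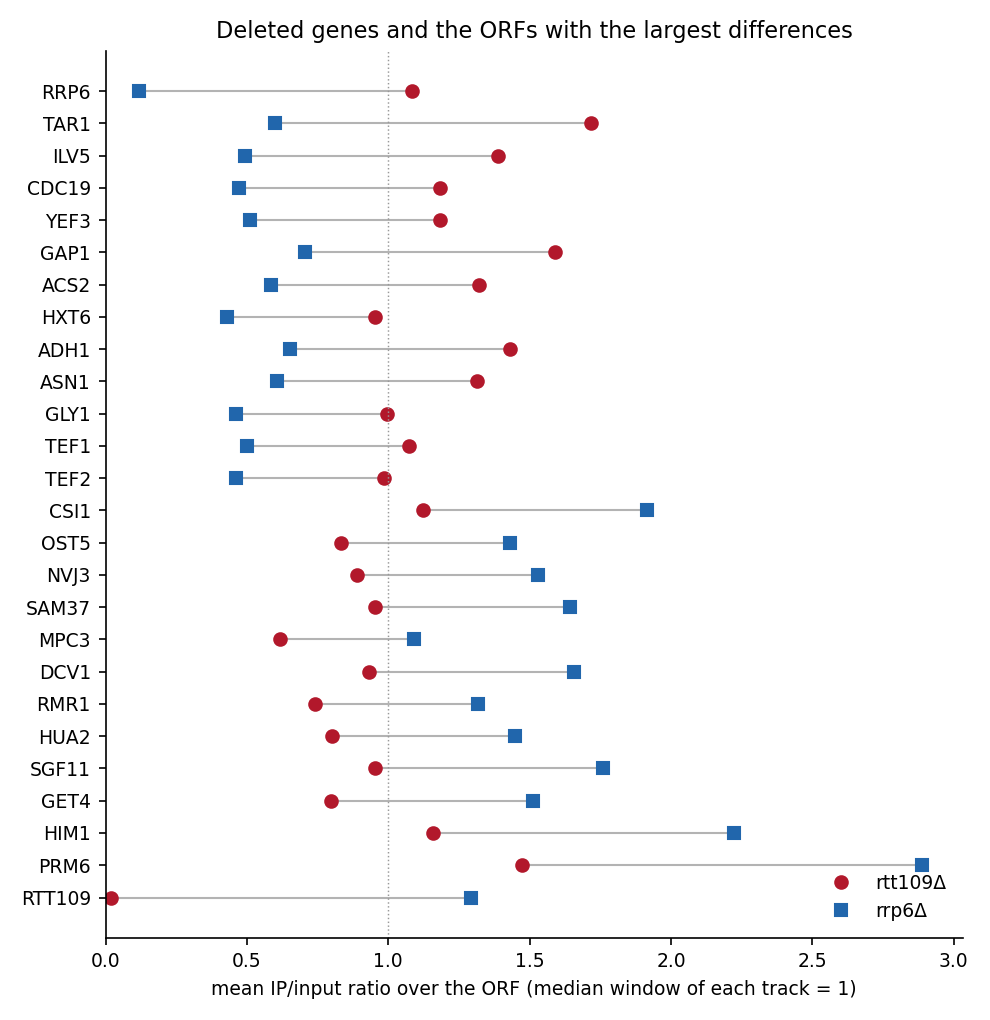
Mean IP/input ratio over the ORF in rtt109Δ (circles) and rrp6Δ (squares) for the 2 deleted genes and the 12 ORFs at each end of the comparison. The ORFs were chosen by this difference and by their level, so the gap between the strains is set by the choice; log2 ratios run from -0.97 at PRM6 to 1.51 at TAR1, with 1 value per strain and no error bar.

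Repeats gave the largest differences among ORFs at both ends, apart from the deleted genes. The CUP1 array on chromosome VIII, whose copies encode a copper metallothionein, was low in rtt109Δ. CUP1-1 had 0.283 in rtt109Δ and 0.582 in rrp6Δ, and its neighbour YHR054C had 0.478 in rtt109Δ and 1.31 in rrp6Δ. On the higher side, 16 of the 48 ORFs more than 2-fold higher lay on chromosome XII, which carries the ribosomal DNA (33.3%, beside 520 of all 5781 ORFs or 8.99%). These include ILV5, YEF3 and ACS2, which lie outside the ribosomal DNA, so the share of the chromosome is not a share of repeats. No gene symbol was given for 14 of the 48 (29.2%, beside 716 of 5781 or 12.4%). YLR159C-A and YLR157C-C, in the region of the ribosomal DNA, had log2 ratios of 1.89 each. Copy number and occupancy cannot be told apart in either array.

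Chromosome I stood apart from the others. Its 94 ORFs had a median log2 ratio of 0.24 (interval 0.17 to 0.32), with 30 higher and 3 lower, and a median ratio of 1.16 in rtt109Δ and 0.973 in rrp6Δ. The median over all its windows, inside and outside genes, was 0.24 too, and the medians of stretches of 50 kb lay between 0.14 and 0.33. A change in copies of the chromosome and a change in occupancy cannot be told apart. Chromosome XII was next with a median of 0.04, and the other 13 lay between -0.10 and -0.03. On chromosome XII the stretch from 400 to 500 kb, which holds the ribosomal DNA, had a median of 0.34, and the others lay between -0.06 and 0.12. With chromosome I left out, the counts were 658 lower and 622 higher ORFs.

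The differences also depended on the place within the gene. Among 3798 ORFs of at least 900 bp, the first part had a median log2 ratio of 0.06, with 256 ORFs lower (6.74%) and 679 higher (17.9%), but it was -0.0061 in the 2009 of them that reached the median level, and -0.30 after background subtraction. The middle part had a median of -0.02, with 536 lower (14.1%) and 643 higher (16.9%), and this median had the other sign, 0.07, with tracks scaled to their means. The last part had a median of -0.22, with 1110 lower (29.2%) and 253 higher (6.66%). The median ratio in the last part was 1.01 in rtt109Δ and 1.16 in rrp6Δ, against 0.915 in rtt109Δ and 0.870 in rrp6Δ in the first part. Within an ORF, the last part was lower than the first relative to rrp6Δ in 3005 of 3798 ORFs, with a median step of -0.28. Multiplying a whole track by a constant leaves this step as it is, whereas the spread of the tracks and the higher level of the last part can enter it. In alternatives chosen after seeing the data, the median step was -0.22 with ranks matched over the parts (below 0 in 2796 of 3798 ORFs) and -0.54 after background subtraction (below 0 in 2674 of 3504).

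The step towards the 3′ end was present with both kinds of neighbour. In ORFs whose next ORF downstream ran towards them (convergent), the last part had a median log2 ratio of -0.25. Where the next ORF ran the same way (tandem), it was -0.18. The first parts had 0.06 in both. Among the lists, cytosolic ribosomal proteins had medians of 0.49 in the first and 0.44 in the last part. Ribosome biogenesis genes had 0.17 in the first and -0.11 in the last part, and DNA damage genes had -0.10 in the first and -0.43 in the last. Meiotic genes had -0.29 in the first and -0.24 in the last part, so their ratio of rtt109Δ to rrp6Δ was low at both ends of the ORF.

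Both tracks peaked outside ORFs. In ORFs of 1500 bp or more, the ratio averaged by distance from the start codon was highest 100 to 150 bp upstream, at 1.73 in rtt109Δ and 1.85 in rrp6Δ. Around their stop codons it was highest 50 to 100 bp downstream, at 2.39 in rtt109Δ and 3.19 in rrp6Δ, and the log2 ratio of these means, -0.42, was the lowest of the profile. That stretch had 1844 windows against 2161 at 100 bp before the stop codon, so some of it has no value in the tracks. The lists had their own shapes. Glycolytic genes had an upstream peak of 2.95 in rtt109Δ and 2.25 in rrp6Δ, and just past the stop codon 3.80 in rtt109Δ and 3.21 in rrp6Δ, from 14 windows. Ribosomal protein genes reached 3.19 in rtt109Δ and 3.15 in rrp6Δ past the stop codon, although their ORFs differed. Meiotic genes peaked upstream at 1.90 in rtt109Δ and 2.56 in rrp6Δ, and past the stop codon at 2.00 in rtt109Δ and 2.95 in rrp6Δ.

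**Figure D4:**
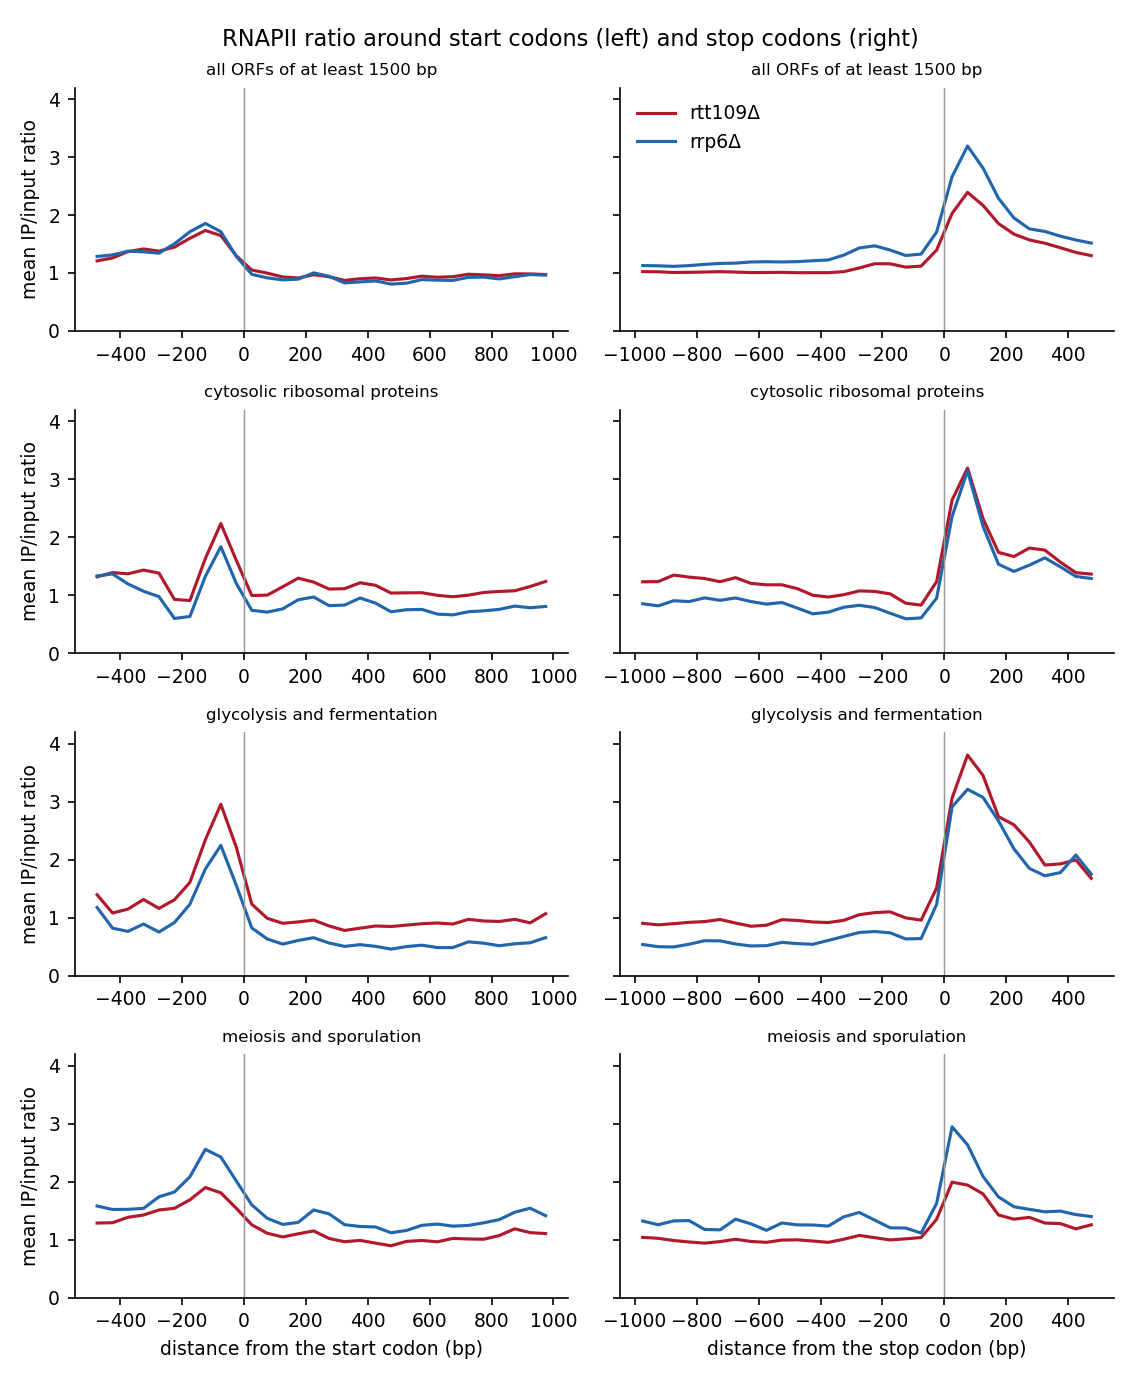
Mean IP/input ratio by distance from the start codon (left) and the stop codon (right), in bp, for rtt109Δ (red) and rrp6Δ (blue) in 4 sets of ORFs. Past the stop codon the mean of long ORFs reaches 2.39 in rtt109Δ and 3.19 in rrp6Δ, and within ORFs glycolytic and ribosomal protein genes are higher in rtt109Δ while meiotic genes are lower.

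Gaps between ORFs of 200 to 1500 bp that hold no annotated noncoding RNA gene were split by the direction of their neighbours. Of 4154 gaps, 800 were over 1.3-fold lower (19.3%) and 413 higher (9.94%). Convergent gaps, which lie between 3′ ends, had a median ratio of 1.99 in rtt109Δ and 2.55 in rrp6Δ and a median log2 ratio of -0.37, with 369 of 750 lower and 21 higher. Tandem gaps had 1.57 in rtt109Δ and 1.65 in rrp6Δ and a median of -0.09, or 0.0047 with tracks scaled to their means. Divergent gaps, which lie between promoters, had 1.28 in rtt109Δ and 1.26 in rrp6Δ and a median of 0.05, with 82 of 1180 lower and 175 higher.

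Convergent gaps also had the highest levels, so gaps were divided by their level over both strains into 4 groups of equal size. In the highest group the median log2 ratio was -0.43 in 454 convergent, -0.28 in 513 tandem and -0.28 in 72 divergent gaps. In the next group it was -0.27 in 174 convergent, -0.14 in 658 tandem and -0.10 in 206 divergent gaps. In the lowest group it was -0.18 in 30 convergent gaps, with an interval of -0.42 to 0.06, against 0.18 in 486 tandem and 0.22 in 523 divergent gaps. Convergent gaps had the lowest median in each of these groups, and the other kinds lay close to each other.

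Noncoding RNA genes were mostly higher in rtt109Δ. Past the limit were 276 of 397 genes on the higher side (69.5%) and 11 on the lower (2.77%). Transfer RNA genes, which RNA polymerase III transcribes, made up most of them. Their median ratio was 1.28 in rtt109Δ and 0.852 in rrp6Δ, a median log2 ratio of 0.59, with 207 of 264 higher and 2 lower. A tRNA gene holds 2 windows in the median, and each window reaches beyond it. The flanks differed less, as the 300 bp upstream had 1.85 in rtt109Δ and 1.96 in rrp6Δ (log2 ratio -0.06) and the 300 bp downstream 1.84 in rtt109Δ and 1.71 in rrp6Δ (0.15). YNCF0014C had 1.17 in rtt109Δ and 0.416 in rrp6Δ, and YNCL0050C, at the other end, had 1.51 in rtt109Δ and 2.12 in rrp6Δ. Many tRNA genes are near-identical copies that share reads. With 100 bp on either side included, the median was 0.34.

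Small nucleolar RNA (snoRNA) genes, whose RNAs guide modification of ribosomal RNA and whose ends Rrp6 trims, differed over a broader stretch. Their median ratio was 1.53 in rtt109Δ and 1.19 in rrp6Δ, a median log2 ratio of 0.33, with 36 of 75 higher and none lower. The medians were 0.28 in the 300 bp upstream and 0.26 in the 300 bp downstream. SNR76 had 1.62 in rtt109Δ and 0.801 in rrp6Δ, SNR18 had 1.53 in rtt109Δ and 0.765 in rrp6Δ, and SNR50 and SNR57 were lowest with log2 ratios of -0.25 and -0.12. The 6 spliceosomal snRNA entries, of which SNR7-L and SNR7-S are forms of 1 gene, all lay above 0, from 0.22 at SNR19 to 0.61 at SNR6. SNR6, the U6 gene, is transcribed by RNA polymerase III and had 2.82 in rtt109Δ and 1.84 in rrp6Δ.

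The other 4 RNAs of stable ribonucleoproteins ranged widely. SCR1 of the signal recognition particle, transcribed by RNA polymerase III, had 1.42 in rtt109Δ and 0.702 in rrp6Δ. RPR1 of RNase P, also transcribed by that polymerase, had 1.04 in rtt109Δ and 0.570 in rrp6Δ. NME1 of RNase MRP had 1.32 in rtt109Δ and 1.13 in rrp6Δ, and the telomerase RNA gene TLC1 had 1.35 in rtt109Δ and 1.52 in rrp6Δ. All 12 ribosomal RNA genes were higher, with a median of 1.74 in rtt109Δ and 0.659 in rrp6Δ, as were all 10 precursor and spacer entries. RDN18-1 had 2.57 in rtt109Δ and 1.28 in rrp6Δ, RDN25-1 had 1.71 in rtt109Δ and 0.618 in rrp6Δ, and RDN5-5 had 1.64 in rtt109Δ and 0.439 in rrp6Δ. The copies of the array share reads, and some entries lie within others, so these counts hold the same windows more than once. The count over all noncoding genes includes them. Copy number and occupancy cannot be told apart in the array.

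Long noncoding RNA genes held both directions. The 19 genes of the class ncRNA had a median log2 ratio of -0.0024, with 7 lower and 6 higher, or 0.09 with tracks scaled to their means. Highest were ZOD1, with a log2 ratio of 1.04 at a single window, and RUF23 with 0.71. SRG1, whose transcription across the SER3 promoter represses that gene, had 1.86 in rtt109Δ and 1.17 in rrp6Δ. HRA1, on chromosome I, had 1.25 in rtt109Δ and 0.864 in rrp6Δ. Lower were SUT390, with 1.34 in rtt109Δ and 2.59 in rrp6Δ, SUT035, with 1.40 in rtt109Δ and 2.37 in rrp6Δ, and SUT532, with 1.53 in rtt109Δ and 2.57 in rrp6Δ, which are stable unannotated transcripts. Such transcripts lay on both sides. SUT126 and SUT418 were also lower, with log2 ratios of -0.61 and -0.39, whereas SUT125 was higher, with 0.55. SUT053 and SUT468 were within the limit, with 0.22 and 0.25. RUF5-1 and RUF5-2 lie in the CUP1 array and had log2 ratios of -1.03 and -1.15. IRT1, the noncoding RNA upstream of IME1, had 1.21 in rtt109Δ and 1.21 in rrp6Δ. Among 7 antisense RNA genes, which share windows with the gene they oppose, the values ran from -0.56 to 0.66, and RME2, the antisense RNA of IME4, had 0.844 in rtt109Δ and 0.757 in rrp6Δ.

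**Figure D5:**
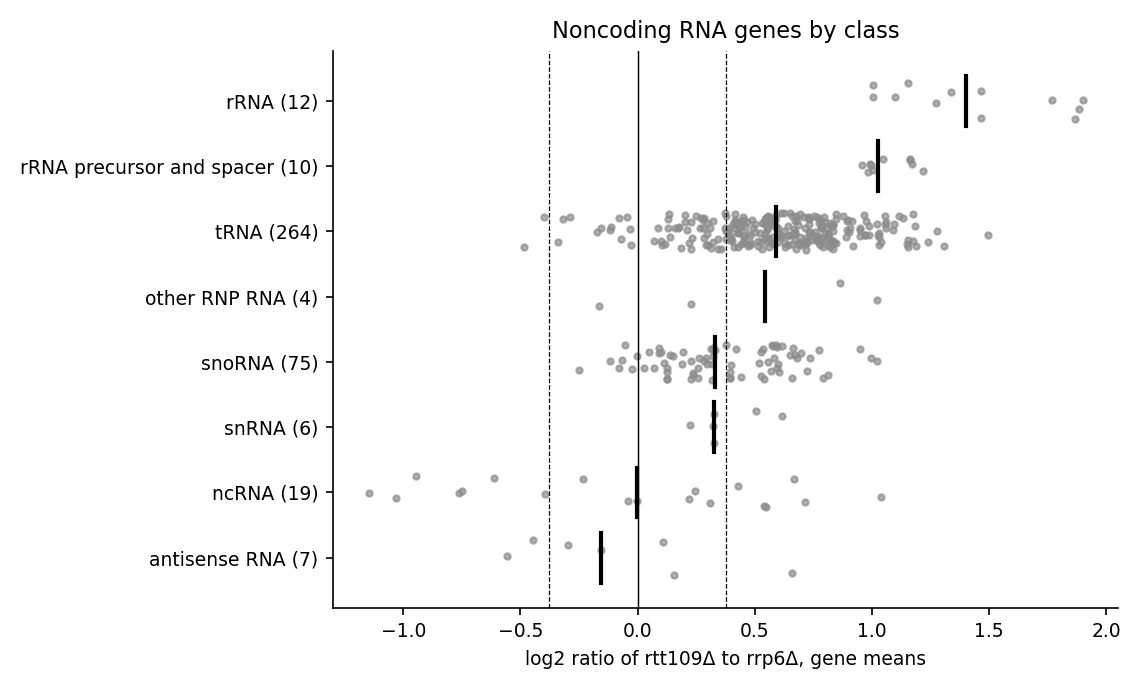
Log2 ratio of rtt109Δ to rrp6Δ for each noncoding RNA gene (points) and class median (black bars), with the number of genes in parentheses and dashed lines at 1.3-fold. Ribosomal and transfer RNA genes lie mostly above the limit, with medians of 1.40 and 0.59, and the ncRNA class spreads from -1.15 to 1.04.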

How the data were processed

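RNAPII ChIP-seq tracks of rtt109Δ and rrp6Δ were compared. The authors deposited 1 track of IP to input ratios per genotype, with replicates combined and the median window at 1. The labels name the build sacCer3 and the tools FastQC, Bowtie2, SAMtools, deepTools and bedtools, without versions or settings. How replicates were combined is not given in the sources used here, and the depth is unknown, so no counting error was derived. Nuclease digestion depends on chromatin and base composition and can enter such ratios.

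Positions of genes came from the RefSeq annotation of R64, the same assembly as sacCer3, and strands from systematic names. Chromosome IX, with 214 ORFs and 13 noncoding RNA genes, was not analysed here, and 7 ORFs had no window. Values are means of windows centred in a feature, without a pseudocount or a filter. With 1 track per genotype no test was made. Limits were 1.3-fold, as in the study. The members, gene lists and rules were chosen with earlier results of these data known. From each list and noncoding class, up to 2 genes at each end, or others chosen after their values were seen, were named, and the 12 ORFs at each end by the rule in the text. Matched ranks and background subtraction for parts of ORFs and descriptions by chromosome stretch, neighbour and level within lists and gaps were added after the data were seen. Retrotransposon ORFs could not be identified in the annotation used, and positions of cryptic unstable transcripts (CUTs) are on another build, so neither was analysed here. The scripts were tested on simulated data. Computations used pandas 2.3.3, numpy 2.4.6, matplotlib 3.10.9 and scipy 1.17.1 under Python 3.11.15.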

Additional observations from a re-analysis of the deposited data

How the results depend on the processing

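Of 504 recomputed values, 363 stayed within the margin of the main value, 131 moved out of it and 10 were counted as reversed. A median was counted as reversed only where the interval of its main value excluded 0, so other sign changes lie among the rest. No paired analysis was possible because the replicates are combined in 1 track per genotype, and no replicate could be left out for the same reason. The count of lower ORFs, 661, was 111 at a limit of 1.5-fold, 315 after division by the track mean, 406 after division by the median ORF, 123 with a pseudocount of 0.595 and 3270 after background subtraction. The count of higher ORFs, 652, was 287 at 1.5-fold, 205 with the pseudocount and 138 among the 2891 ORFs at or above the median level. The median over ORFs, -0.06, was 0.030 after division by the mean, -0.00083 after division by the median ORF, -0.036 with matched ranks, -0.0091 with medians over windows, -0.038 with the pseudocount, -0.17 at or above the median level, -0.53 after background subtraction and 0.032 over the first 500 bp.

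Division by the mean, division by the median ORF and medians over windows gave 0.15, 0.12 and 0.11 for the first part of ORFs, 0.069, 0.038 and 0.0095 for the middle part, -0.13, -0.16 and -0.18 for the last part, 0.14, 0.11 and 0.11 for divergent gaps, 0.0047, -0.026 and -0.013 for tandem gaps, -0.27, -0.31 and -0.30 for convergent gaps, 0.080, 0.049 and 0.037 for group A, and -0.016, -0.047 and -0.038 for group B. At or above the median level the first, middle and last parts had -0.0061, -0.13 and -0.31, group A -0.10 and group B -0.19. In alternatives chosen after seeing the data, the first, middle and last parts had 0.077, -0.025 and -0.14 with matched ranks and -0.30, -0.52 and -0.74 after background subtraction. The step from the first to the last part, -0.28, was -0.33 at or above the median level, -0.21 over ORFs of any length, -0.22 with matched ranks and -0.54 after background subtraction. ORFs of any length gave -0.17 for the last part, and gaps of any length -0.42 for convergent gaps. The lowest level group had 0.37, 0.33, -0.031, 0.32, 0.0058 and 0.43 after division by the mean, by the median ORF, matched ranks, and ranking by WT, by rtt109Δ alone and by rrp6Δ alone, and the highest had -0.16, -0.19, -0.057, -0.32, -0.00036 and -0.36. With ORFs ranked by rtt109Δ alone, a value that is part of the ratio, the lowest and the highest group thus differed little. The closeness of both groups with matched ranks was set by the equal spread. Genes of tRNAs had 0.68 after division by the mean and 0.34 with flanks, and snoRNA genes 0.25 with flanks. Pearson's r was 0.673 with medians over windows and 0.486 at or above the median level.

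Of the 23 list medians, 14 kept their sign under all alternatives run and 9 changed it under at least 1. After background subtraction 6 lists, in place of 14, had a median above 0, and the proteasome list had -0.22. Of 102 recomputed values of single named ORFs, 15 moved by more than 1.3-fold and none changed sign. They used only division by the mean or median ORF, medians over windows and the pseudocount, which cannot change a sign. Matched ranks and background subtraction were not run on them. The ORFs other than the deleted genes were chosen for large differences, so the kept signs are no support for them.
The planned removal of retrotransposon ORFs was not run, so the alternative of ORFs with a gene symbol used the symbol alone.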
